A study of Mus musculus with 8 samples.

Results

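Loops with an end at the start of a long non-coding RNA (lncRNA) gene were described in H3K27ac HiChIP lists of mouse HPC-7 cells, an established line of blood progenitors. HiChIP joins DNA ends that were near each other in the nucleus, then enriches the joined fragments with an antibody, here against H3K27ac, a mark of active promoters and enhancers. As the word is used here, a loop joins 2 bins of 5 kb that were ligated more often than the caller's model predicted. A lncRNA start bin is a bin that held the canonical start site of a lncRNA gene of GENCODE mouse release M39 (genome build GRCm39) and no protein-coding start site. This rule used the annotation alone and none of the measured values. Of 214313 distinct loops in the 4 lists combined, 38146 had at least 1 end in a lncRNA start bin.

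Either p42, the full-length CEBPA protein, or p30, its shorter form found in leukaemia, was expressed in the cells. Both lines were studied untreated (UT) and after 2 h with the bacterial ligand LPS at 100 ng/mL, which gave 4 groups of 2 libraries (8 in all), with 1 list deposited per group. Where 4 values stand together they are in list order, p30 before p42 and within each isoform UT before LPS. According to the methods, the isoforms came from retroviral constructs on top of the endogenous gene, fused to ERT2 for nuclear entry with 4-hydroxytamoxifen or without that fusion. The labels do not say which version was used, nor whether a line was a clone. No spread between replicates could be computed, so that each ratio below compares those libraries, not the conditions. The start sites of 13 of 13 haematopoietic progenitor marker genes, such as Kit, Tal1 and Spi1, held loops in every list, beside 3, 2, 3 and 2 of 13 marker genes of other tissues.

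lncRNAs are transcripts without a long open reading frame, and their genes are often found close to protein-coding genes or within enhancers. Some act on the chromatin around their own start site, others are precursors of microRNAs or small nucleolar RNAs, and for most no role is known. In myeloid cells, CEBPA binds many enhancers and LPS acts through toll-like receptors on NF-kB and AP-1 factors. A loop between a lncRNA start and a promoter therefore records spatial proximity of both sites under H3K27ac, not an effect of the transcript.

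The annotation held 32884 lncRNA genes, of which 27299 started in 25235 lncRNA start bins, while 5585 shared their bin with a protein-coding start and were left out. A loop in at least 1 list was found for 5863 of these bins, with 6474 lncRNA genes. Names of the Gm or Rik kind, given to genes without an assigned function, made up 96.6% of these genes. In 558 bins more than 1 lncRNA gene started (up to 5), so that a loop of such a bin cannot be given to a single gene. Start sites of genes with a loop lay between protein-coding genes in 58.0%, in an intron of one in 33.7% and in an exon in 8.36%. The nearest protein-coding start was at a median of 21.1 kb from lncRNA genes with a loop and at 71.3 kb from the 20825 without one. A protein-coding start lay within 5 kb of 13% of the former and 4.05% of the latter.

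Promoters of 5 lncRNA genes that recur below are given from the GRCm39 sequence, 250 bases before the start site to 50 bases from it on, in the direction of transcription. They were chosen because loops of their bins differed most between the lists or led to a gene of the inflammatory response. Matches to 4 short motifs are in capitals, searched on both strands: TTGCNNAA for C/EBP, TGANTCA for AP-1, GAGGAAGT for PU.1 and GGGANTTTC for NF-kB. The windows are chr1:150040687-150040986 (minus strand) for Ptgs2os2, chr17:45020782-45021081 (plus) for Runx2os2, chr2:167619139-167619438 (plus) for 9230111E07Rik, chr17:29702254-29702553 (plus) for Gm65294 and chr8:127529974-127530273 (minus) for Gm45805.
Ptgs2os2: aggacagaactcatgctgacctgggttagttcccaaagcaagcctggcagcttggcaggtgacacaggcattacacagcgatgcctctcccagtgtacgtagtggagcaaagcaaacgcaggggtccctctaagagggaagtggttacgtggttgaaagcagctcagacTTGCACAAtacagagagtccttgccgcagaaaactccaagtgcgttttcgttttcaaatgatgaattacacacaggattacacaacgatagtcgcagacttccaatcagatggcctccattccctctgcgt
Runx2os2: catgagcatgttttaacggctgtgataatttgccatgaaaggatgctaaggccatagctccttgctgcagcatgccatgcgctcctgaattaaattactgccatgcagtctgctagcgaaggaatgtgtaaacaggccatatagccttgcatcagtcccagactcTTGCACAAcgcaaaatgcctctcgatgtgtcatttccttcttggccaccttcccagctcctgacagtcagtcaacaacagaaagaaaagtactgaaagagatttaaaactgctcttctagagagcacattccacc
9230111E07Rik: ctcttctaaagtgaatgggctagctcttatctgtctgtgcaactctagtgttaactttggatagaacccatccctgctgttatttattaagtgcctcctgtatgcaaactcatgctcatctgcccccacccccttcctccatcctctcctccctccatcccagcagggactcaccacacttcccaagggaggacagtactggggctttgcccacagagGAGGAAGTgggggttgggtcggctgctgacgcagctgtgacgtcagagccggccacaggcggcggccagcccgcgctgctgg
Gm65294: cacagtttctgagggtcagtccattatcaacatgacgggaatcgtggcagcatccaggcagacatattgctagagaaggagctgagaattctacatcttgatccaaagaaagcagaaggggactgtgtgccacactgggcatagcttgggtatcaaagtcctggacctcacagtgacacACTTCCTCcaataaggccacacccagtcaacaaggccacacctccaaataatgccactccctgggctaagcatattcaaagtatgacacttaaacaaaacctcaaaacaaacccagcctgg
Gm45805: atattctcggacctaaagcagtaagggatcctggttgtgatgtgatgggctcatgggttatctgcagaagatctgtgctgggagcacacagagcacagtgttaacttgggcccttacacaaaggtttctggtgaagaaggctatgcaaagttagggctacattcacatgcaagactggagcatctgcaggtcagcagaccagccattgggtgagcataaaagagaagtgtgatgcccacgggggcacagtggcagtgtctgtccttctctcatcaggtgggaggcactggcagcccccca

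The C/EBP letters stood 81 bases before the Ptgs2os2 start and 85 bases before that of Runx2os2, in both cases on the strand shown. The PU.1 letters were found in the windows of 9230111E07Rik and Gm65294, in the latter on the opposite strand, and none of the 4 motifs in that of Gm45805. Over all 6474 promoters of lncRNA genes with a loop, 11.6% held the C/EBP letters, 10.9% those of AP-1, 4.79% those of PU.1 and 1.37% those of NF-kB. Among 20823 lncRNA promoters without a loop these shares were 12.3%, 10.9%, 3.03% and 1.16%. Among 10526 promoters of protein-coding genes with a loop they were 8.82%, 5.23%, 3.16% and 1.13%. All 49067 promoters of this length, which include those of the lncRNA genes, gave 11.5%, 9.23%, 3.28% and 1.22%. A match describes the letters only.

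In base composition, lncRNA promoters with a loop (median GC content 49.7%) lay between lncRNA promoters without one (46.7%) and 10526 protein-coding promoters with a loop (58.0%). CpG-rich windows, with an observed-to-expected CpG ratio over 0.6, made up 10.7% of lncRNA promoters with a loop, 5.67% of those without and 62.9% of protein-coding promoters with a loop.

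The number of loops at lncRNA starts differed between the lists. There were 15335 (UT) and 17646 (LPS) such loops with p30, and 28655 and 14628 with p42. The p42 UT list therefore held 1.87 times as many as the p30 UT list, and the p42 LPS list 0.829 times as many as the p30 LPS list. LPS lists held 1.15 times as many as UT lists with p30 and 0.510 times as many with p42. The ratios over all loops of the same lists were 1.97, 0.831, 1.18 and 0.497, so that loops at lncRNA starts moved with the length of the whole list. Equal-size lists were made by ranking each list by q-value and keeping the first 78591 loops, the length of the shortest list. They held 15004, 14969, 15110 and 14628 loops at lncRNA start bins, and the ratios then lay between 0.968 and 1.01.

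**Figure D1:**
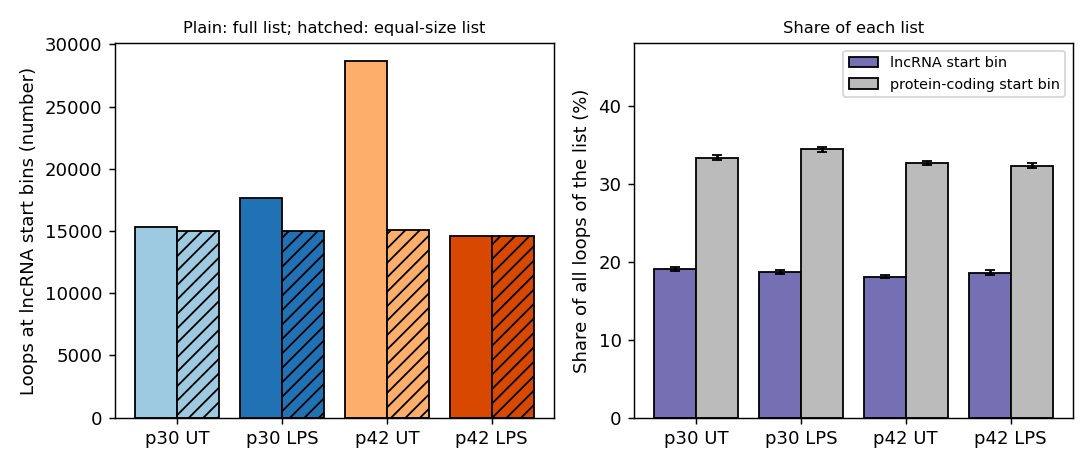
Number of loops at lncRNA start bins in each list (left; full lists and lists of equal size) and share of all loops of the list that had an end in a lncRNA or a protein-coding start bin (right, in percent, with 95% Wilson intervals as error bars). The p42 UT bar of 28655 loops came down to 15110 at equal size, and the lncRNA share lay between 18.1% and 19.1%.

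As a share of the list, loops at lncRNA start bins made up 19.1% with p30 UT (95% Wilson interval 18.8 to 19.3%) and 18.7% with p30 LPS (18.4 to 18.9%). With p42 they made up 18.1% (17.9 to 18.3%) before and 18.6% (18.3 to 18.9%) after LPS. Loops at protein-coding start bins took 33.3%, 34.4%, 32.6% and 32.3%. These intervals cover counting error only, and loops that share a bin are not independent. In contacts, lncRNA start loops held 2.35%, 3.28%, 4.49% and 2.44% of all modelled contacts, in list order. Modelled contacts, the measure of depth, numbered 17976716, 14503330, 18999991 and 15831583 in these lists, and the part of depth in the number of loops was not tested.

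The distance between both ends was compared next. The median for loops at lncRNA starts was 50.0 kb in p30 UT and p42 UT and 45.0 kb in both LPS lists, the same as for protein-coding start loops in each list. A distance over 100 kb was reached by 23.9%, 21.0%, 22.9% and 22% of lncRNA start loops. These shares were on average 1.95 percentage points above those of protein-coding start loops, in 4 of 4 lists (exact sign-flip permutation test over the lists, two-sided, p = 0.13, the smallest that 4 lists allow). Contacts exceeded the expected number by a median factor of 4.60 to 4.74, on average 0.0650 above protein-coding start loops (4 of 4 lists, exact p = 0.13). Both bins held an H3K27ac peak in 88.9 to 91.3% of the loops.

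Per bin, lncRNA starts had lower median coverage than protein-coding starts and higher median coverage than bins with neither in all 4 lists. A loop was found at 4131, 4200, 5121 and 3886 lncRNA start bins, which is 16.4%, 16.6%, 20.3% and 15.4% of all lncRNA start bins. Of protein-coding start bins 33.4 to 42.7% had one. The median number of loops per bin was 2, 3, 4 and 2 at lncRNA starts and 3, 3, 5 and 3 at protein-coding starts (lower in 3 of 4 lists, exact p = 0.25). A single loop was held by 23.5 to 33.2% of lncRNA start bins, on average 5.78 percentage points more than of protein-coding start bins (4 of 4 lists, exact p = 0.13). Median coverage, the number of reads in the bin, was 2600, 2372, 2807 and 2152 reads at lncRNA starts. The difference from protein-coding starts averaged -880 reads and that from bins with neither start 147 reads, of the same sign in 4 of 4 lists each (exact p = 0.13). An H3K27ac peak was marked in 87.5 to 90.3% of lncRNA start bins.

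**Figure D2:**
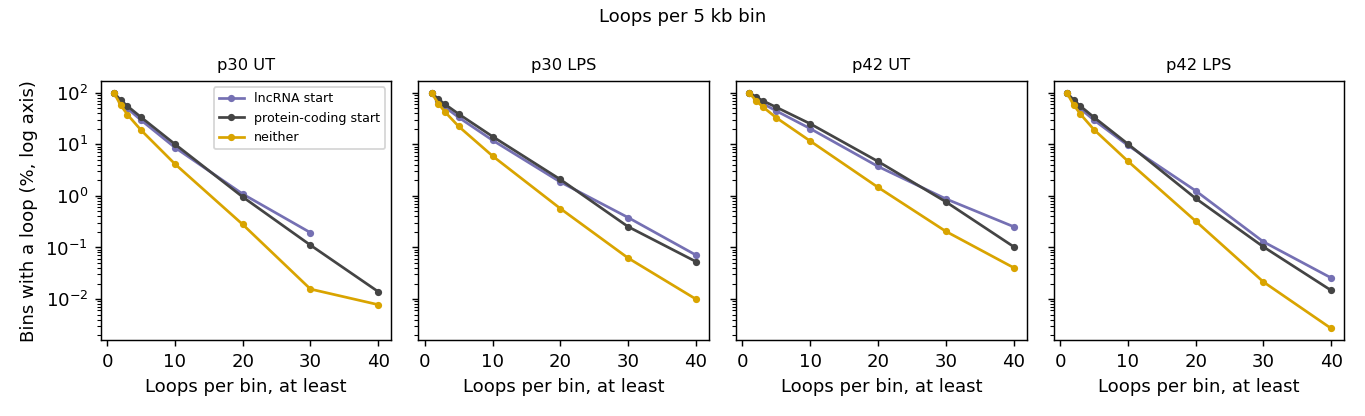
Share of bins with a loop (percent, log axis) that held at least the number of loops on the x axis, for lncRNA start, protein-coding start and other bins in the 4 lists. At 10 or more loops the lncRNA line lies below the protein-coding line and above the line of other bins in all 4 panels (8.69% against 10.1% and 4.17% in p30 UT), and at 20 or more it lies above the protein-coding line in p30 UT (1.09% against 0.956%) and p42 LPS (1.26% against 0.897%) and below it in the other two.

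The most connected bins were few: 586 bins, 10% of those with a loop, took 40.1% of all loop ends at lncRNA starts. The stretch chr17:84210001-84495000 around Zfp36l2, which encodes an mRNA-decay factor of the ZFP36 family, held 15 lncRNA start bins. Their loop ends numbered 346, 324, 531 and 250. Gm35551 and Gm64687, with the most loops there, held 38, 38, 67 and 38 loops and 38, 33, 46 and 28 loops. The loop from Gm35551 to the Zfp36l2 start, over 70 kb, had 60, 49, 93 and 61 contacts. Since these bins are neighbours, their loops are in part the same contact seen from adjacent bins.

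Interferon receptor genes lay around the bin with the most loops of all, that of Gm60057 (chr16:91150001-91155000), an intergenic gene with 37 loops (UT) and 54 (LPS) with p30 and 68 and 39 with p42. In lists of equal size it held 37, 53, 46 and 39, the most in p30 LPS. Its partners included Ifnar1, a subunit of the type I interferon receptor, at 130 kb with 16, 24, 33 and 31 contacts, and Ifngr2, a subunit of the interferon gamma receptor, at 190 kb with 19, 30, 26 and 26 contacts. Both were joined to it in all 4 lists. Il10rb, a subunit of the interleukin-10 receptor, was joined to it with 23, 33 and 20 contacts in p30 UT, p42 UT and p42 LPS, and no such loop was in the p30 LPS list. Gm36587, which starts close by and 5.63 kb from Ifnar2, held 24, 36, 40 and 36 loops (24, 32, 31 and 36 at equal size) and also led to Ifnar1 and Ifngr2.

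Chemokine receptor genes surrounded Gm69347 (chr9:123725001-123730000), the fourth bin in this order, with 36 and 40 loops with p30 (UT, LPS) and 42 and 33 with p42. At equal size it held 36, 39, 29 and 33 loops, so that p42 UT went from the most to the fewest. Its coverage was 40187, 40127, 49279 and 26034 reads, far above the medians of lncRNA start bins. The loop to Ccr1, the receptor of CCL3, had 54 contacts (UT) and 55 (LPS) with p30 and 169 and 84 with p42. Of the contacts of both UT lists, 75.8% were from p42 (95% Wilson interval 69.8 to 80.9%, against 51.4% of the modelled contacts), and of those of both LPS lists 60.4% (52.1 to 68.2%, against 52.2%). Loops to Ccr1l1 and Ccr2 were in all 4 lists too. At Ccr2, the receptor of CCL2, the contacts were 11, 17, 22 and 12, and the interval of the p42 share in UT (49.6 to 80.2%) held the share of modelled contacts.

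Of the other bins in the 10 with most loops, Gm69364 held 30, 36, 41 and 25 loops (30, 35, 23 and 25 in lists of equal size), and led to Psen2 and Sde2 in all lists. Gm34455 and Gm65247, which start in 1 bin 5.25 kb from Dusp1, held 27, 34, 37 and 28 loops (27, 33, 32 and 28 at equal size), of which 24 were in all 4 lists. Dusp1 encodes a phosphatase that inactivates MAP kinases. Gm45805 is described with Irf2bp2 further on, and 1810073O08Rik and Gm65299 belong to the Zfp36l2 stretch.

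Protein-coding partner genes were asked for next. The partner bin held a protein-coding start in 19% (UT, 95% Wilson interval 18.4 to 19.6%) and 20% (LPS, 19.4 to 20.6%) of lncRNA start loops with p30. With p42 it was 18.1% (17.7 to 18.6%) and 18.5% (17.9 to 19.1%). The shares were near those of loop ends at bins without a start, 17.4% and 18.1% with p30 and 17.2% and 16.9% with p42. Of protein-coding start loops 15.4%, 15.2%, 14.1% and 14.5% had such a start at both ends. That share counts each such loop once although both of its ends have a coding partner, so it was not ranked against the others. With the starts of all transcripts the shares of lncRNA start loops were 30.8, 31.0, 29.3 and 30.3%, over 1.5 times as high. The level thus depends on which start sites are counted. Another lncRNA start was the partner in 6.29 to 6.81%, and a peak bin without any start in 68.7 to 70.7%. The protein-coding genes reached numbered 2334, 2695, 3672 and 2135, with 1377 genes in all 4 lists. Of the loops to a protein-coding start 25 to 26.5% led to the gene whose start was nearest. The shortest loop in the lists spanned 10 kb, so that a nearest start in the adjacent bin could not be a partner. Irf2bp2, which encodes a corepressor of interferon regulatory factor 2, was joined to 6, 12, 11 and 10 lncRNA start bins, and Zfp36l2 to 11, 7, 10 and 10.

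Genes of 3 lists were set against all protein-coding genes, to see how often each kind was joined to a lncRNA start. Many genes of these lists are active in blood cells, so that the share is given over genes with a loop at their own start. Among all such genes it was 28.8%, 32.0%, 37.7% and 28.0%. For 111 inflammatory genes it was 38.0%, 48.7%, 55.4% and 46.2%, with 71, 76, 83 and 78 genes that had a loop. For 56 genes of haematopoietic factors and receptors it was 57.9%, 55.0%, 63.0% and 52.5%. For 22 AP-1 and C/EBP genes it was 33.3%, 42.1%, 55.6% and 44.4%, over 18 or 19 genes. In lists of equal size the shares were 38.0%, 46.7%, 53.6% and 46.2% for inflammatory genes, 57.9%, 55.3%, 60.0% and 52.5% for the haematopoietic list, and 33.3%, 36.8%, 38.9% and 44.4% for AP-1 and C/EBP genes, beside 28.7%, 30.3%, 30% and 28.0% of all such genes. The highest share of AP-1 and C/EBP genes, in p42 UT in the full lists, was thus in p42 LPS at equal size. In each full list the shares of the inflammatory and haematopoietic lists lay above that of all genes with a loop. The list p30 UT had the lowest share of inflammatory genes. The share of AP-1 and C/EBP genes was higher as well, but in p30 UT it was 6 of 18 genes, close to that of all genes.

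Of the 111 inflammatory genes, 49 were joined to a lncRNA start in at least 1 list and 21 in all 4. Of all 21751 protein-coding genes these numbers were 4337 and 1377. Nfkbia, the NF-kB inhibitor, was joined to 0 and 4 lncRNA start bins with p30 (UT, LPS) and 4 and 3 with p42. Ccl3, a chemokine gene, showed 0, 3, 5 and 2, and Ccl9, another chemokine gene, 0, 2, 5 and 2. For these 3 genes p30 UT was the one list without a partner of this kind. Other genes of the list went the other way: Rel and Csf1 were joined to 1 bin each in p30 UT alone, and Tgfb1 to 2, 0, 1 and 0 bins. Tnfaip3, which encodes the NF-kB inhibitor A20, was joined to 5, 8, 6 and 6 bins, Dusp1 to 6, 7, 7 and 7, and Ier3, an early response gene, to 4, 6, 5 and 5. Those 3 were joined in every list.

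Of the 22 AP-1 and C/EBP genes, 15 were joined to a lncRNA start in at least 1 list and 3 in all 4. These numbers stand beside 4337 and 1377 of all 21751 protein-coding genes. Fos, the AP-1 subunit gene, was joined to 2 lncRNA start bins (UT) and 2 (LPS) with p30 and 6 and 4 with p42. Cebpb, which encodes a relative of CEBPA that is active in inflammation and was on both lists, was joined to 3, 4, 7 and 3, and Cebpa itself to 3, 4, 4 and 2. Lyl1, a blood stem cell factor, led the haematopoietic list with 4, 5, 6 and 6. For Fos, Cebpb, Cebpa and Lyl1 the highest or a tied highest number was in p42 UT, the longest list. The other AP-1 genes were not alike. Fosl1 (0, 0, 1 and 0), Fosl2 (0, 0, 2 and 0) and Mafg (0, 1, 3 and 0) had their highest number in p42 UT as well, and Jund was joined to 2 bins in each UT list and to none with LPS. Fosb and Junb were joined to 1 bin and Atf4 to 2, in p30 LPS alone, Maff to 2 in p30 LPS and 1 in p42 LPS, Batf3 to 1 in p42 LPS, and Atf3 to 1 in each p42 list.

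The number of loops per bin was compared between p42 and p30 in lists of equal size. Of 4624 bins with a loop in either UT list 37.2% had more loops in p42 and 44.6% fewer. Of 4562 bins in the LPS lists it was 39.2% and 41.6%. Over all bins of the genome the shares were 37.0% and 43.7% in UT and 40.5% and 39.3% in LPS. Of 5265 lncRNA start bins with a loop in any list of equal size, p42 had more loops under both treatments in 742 (14.1%) and fewer in 832 (15.8%). Over all 66737 bins with a loop these shares were 13.1% and 13.3%. Each list is 1 measurement, and no test was possible.

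The bins with the largest differences in this direction in lists of equal size were those of Gm74470, 9230111E07Rik, Gm45805, Runx2os2 and Gm40739, ranked by the smaller of both differences (8 loops for the fifth, and 8 for the next bin that was left out). Gm74470 (chr11:114800001-114805000) lies among the Cd300 genes, which encode receptors of myeloid cells. It held 9 and 15 loops with p30 (UT, LPS) and 26 and 22 with p42 (9, 13, 19 and 22 at equal size). Loops to Cd300c were in both p42 lists, with 18 and 14 contacts, and a loop to Cd300a was in p42 UT with 37 contacts, while p30 lists held no loop from this bin to a protein-coding start.

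**Figure D3:**
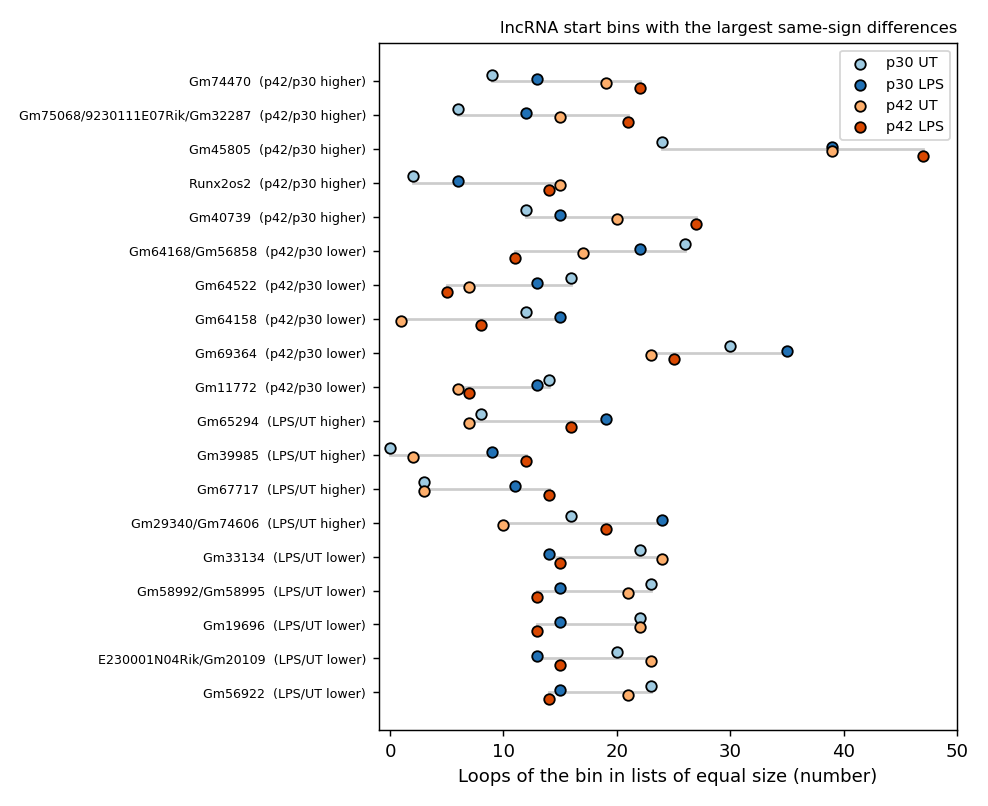
Loops per bin in lists of equal size (x axis, number of loops) for the lncRNA start bins with the largest differences of one sign in both comparisons of a factor; 1 point per list, and the factor and direction in parentheses. Gm45805, drawn with the p42 over p30 group, also met the rule for LPS over UT (24, 39, 39 and 47 loops in list order).

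The bin of 9230111E07Rik, in which Gm75068 and Gm32287 start as well (chr2:167615001-167620000), lies 84.3 kb from Cebpb. It held 6 loops (UT) and 17 (LPS) with p30 and 22 and 21 with p42 (6, 12, 15 and 21 at equal size). Its loop to the Cebpb start had 14, 10, 21 and 30 contacts, and was in all 4 lists. The p42 share of the contacts in both LPS lists was 75% (95% Wilson interval 59.8 to 85.8%, against 52.2% of the modelled contacts), and in both UT lists 60.0% (43.6 to 74.4%, against 51.4%). This bin was named for its loops in the same lists, so that these shares describe it and do not test it. Coverage of the bin was 4063, 4972, 8021 and 6175 reads, which was higher in p42 by 0.76 on the log2 scale in UT and by 0.51 in LPS after scaling to all bins.

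Runx2os2 starts in an intron of Runx2, a gene of the RUNX transcription factors, and its bin (chr17:45020001-45025000) held 2 and 7 loops with p30 (UT, LPS) and 19 and 14 with p42. All its partners lay within 105 kb and none held a protein-coding start. Contacts with the bin 15 kb before it, the only loop in all 4 lists, numbered 40, 30, 55 and 41. Gm40739 starts in an intron of Cfap54 and held 12, 18, 36 and 27 loops (12, 15, 20 and 27 at equal size). Its loop to Cdk17, a cyclin-dependent kinase gene, had 39, 31, 64 and 28 contacts and so was not stronger in p42 under LPS.

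The bin of Gm45805 (chr8:127530001-127535000) held 24 loops (UT) and 47 (LPS) with p30 and 54 and 47 with p42. At equal size the numbers were 24, 39, 39 and 47, more with p42 and more with LPS in both comparisons of each. The loop to Irf2bp2, over 210 kb, had 21 and 42 contacts with p30 (UT, LPS) and 45 and 52 with p42, which was 12.1, 24.6, 24.1 and 29.2 times the expected number. Of the contacts of both UT lists 68.2% were from p42 (56.2 to 78.2%, against 51.4%), and of the contacts of both p30 lists 66.7% were from LPS (54.4 to 77.1%, against 44.7%). With p42 the LPS share was 53.6% (43.7 to 63.2%, against 45.5%). The p42 share in UT over all 6332 loops in every list, 57.9%, lay inside the interval of this loop, and the LPS share with p30, 49.8%, below it. So p30 UT had the fewest contacts, and the other 3 lists lay closer to each other. The bin of Gm45805 was named for its loops in the same lists, and its shares are a description.

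The reverse, fewer loops with p42 in lists of equal size, was largest for Gm64168 with Gm56858, Gm64522, Gm64158, Gm69364 and Gm11772 (6 loops for the fifth, and 6 for the next bin). Gm64168 and Gm56858 start in an intron of Gse1 (chr8:121095001-121100000) and held 26, 22, 17 and 11 loops at equal size. The full lists gave 26, 24, 28 and 11, with p42 UT above p30 UT. Gm64522 held 16, 14, 12 and 5 loops in the full lists (16, 13, 7 and 5 at equal size), and 2 of its loops in each of them led to Cdkn1a, the cell cycle inhibitor p21, and to Rab44, a small GTPase gene. The loop to Cdkn1a had 13, 14, 13 and 13 contacts. A smaller number of loops thus went along with contacts to Cdkn1a that were close to equal. At Gm64158 the equal-size lists held 12, 15, 1 and 8 loops and the full lists 12, 17, 13 and 8, so that 12 of its 13 loops in p42 UT had q-values too large for the list of equal size.

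In the comparison of LPS with UT at equal size, 624 lncRNA start bins (11.9% of 5265) had more loops with LPS in both isoforms and 722 (13.7%) fewer, beside 11.1% and 11.1% of all bins with a loop. Of 4683 bins in the p30 lists, 37.8% had more loops with LPS and 42.8% fewer, beside 38.0% and 41.4% over all bins. Of 4415 bins in the p42 lists it was 38.9% and 40.4%, beside 41.1% and 37.1%. Fewer was thus more frequent than more at lncRNA start bins in all 4 comparisons, while over all bins it was less frequent in the LPS lists of p42 against p30 and for LPS against UT with p42. These differences were not tested.

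More loops with LPS were largest at Gm65294, Gm39985, Gm45805, Gm67717 and Gm29340 with Gm74606 (8 loops for the fifth, and 6 for the next). Gm65294 (chr17:29700001-29705000) starts 7.08 kb from Pim1, a kinase gene downstream of cytokine receptors, and held 8 loops (UT) and 20 (LPS) with p30 and 11 and 16 with p42 (8, 19, 7 and 16 at equal size). Its partners lay 10 to 110 kb before its start, and none held a protein-coding start. Contacts with the bin 85 kb away were 36, 59, 34 and 51, higher in both LPS lists. Coverage of the bin was 0.74 higher with LPS on the log2 scale with p30 and 0.45 higher with p42.

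Gm39985 starts in an intron of Specc1 and had no loop with p30 UT, 12 with p30 LPS, and 7 (UT) and 12 (LPS) with p42, or 0, 9, 2 and 12 at equal size. Both LPS lists joined it to Adora2b, an adenosine receptor gene, with 10 and 12 contacts. Gm67717 held 3, 12, 12 and 14 loops and was joined to Rap1b, a small GTPase gene, with 14, 18, 13 and 24 contacts. Its loops in p42 UT came down to 3 at equal size. Gm29340 and Gm74606 held 16, 29, 26 and 19 loops and were joined to Spred1, an inhibitor of Ras signalling, with 34, 42, 37 and 31 contacts. In the full lists LPS was therefore below UT with p42 at this bin, and above it only at equal size (10 and 19 loops).

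Fewer loops with LPS were largest at Gm33134, Gm58992 with Gm58995, Gm19696, E230001N04Rik with Gm20109 and Gm56922 (7 loops for the fifth, and 6 for the next). Gm33134 held 22 and 18 loops with p30 (UT, LPS) and 33 and 15 with p42. E230001N04Rik, which shares its bin with Gm20109, held 20, 14, 29 and 15 loops and was joined to Fkbp5, a gene that glucocorticoids induce, with 41, 15, 41 and 20 contacts. The LPS share of these contacts was 26.8% with p30 (17 to 39.6%, against 44.7%) and 32.8% with p42 (22.3 to 45.3%, against 45.5%), below the modelled share in both. Over all 6332 loops found in every list the LPS share was 49.8% with p30, above the interval of this loop, and 40.2% with p42, inside it. The bin of E230001N04Rik was named for its loops in the same lists, so that these shares describe it and do not test it. Gm58992 and Gm58995 held 23, 17, 28 and 13 loops and were joined to Dusp5, a phosphatase gene of the ERK pathway, with 25, 16, 19 and 17 contacts. Gm19696 and Gm56922 belong to the Zfp36l2 stretch.

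Coverage of the lncRNA start bins was compared in the same pairs of lists, after centring on the median log2 ratio over all bins in both lists (0.22 for p42 against p30 in UT, -0.20 in LPS, -0.14 for LPS against UT with p30 and -0.57 with p42). A difference of 1.5-fold was counted. Of 3762 lncRNA start bins in both UT lists, 256 (6.80%) were higher in p42, where all bins gave 5.55%, and 116 (3.08%) were lower, where all bins gave 2.58%. Of 3282 in both LPS lists, 156 (4.75%) were higher in p42, beside 3.65% of all bins, and 177 (5.39%) lower, beside 2.86%. With p30, 111 of 3420 bins (3.25%) were higher after LPS, beside 2.45%, and 40 (1.17%) lower, beside 0.655%. With p42, 77 of 3631 (2.12%) were higher after LPS, beside 1.56%, and 96 (2.64%) lower, beside 1.24%. With this centring the share at lncRNA starts was above that of all bins in all 8 counts. Scaled to the mean coverage of peak bins instead, 206 bins were higher and 181 lower in p42 than in p30 in UT, so that the excess of higher bins there was smaller. For LPS against UT with p42 that scaling gave 81 higher and 79 lower, so that the excess of lower bins was not kept. The shares of all bins under that scaling were not computed, so these counts do not compare lncRNA starts with other bins. The spread of the log2 ratio, 0.29 to 0.36 (SD over bins) at lncRNA starts, was also a little above the 0.25 to 0.34 over all bins.

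Among 2895 lncRNA start bins with a loop in all 4 lists, 87 (3.01%) were higher in p42 under both treatments and 17 (0.587%) lower, beside 2.09% and 0.368% over all bins. After LPS, 20 (0.691%) were higher in both isoforms and 7 (0.242%) lower, beside 0.509% and 0.0839%. No bin was past the fold in opposite directions. Gm36358 on chromosome 1, in an intron of 2 overlapping protein-coding genes, was among the 5 highest in both comparisons of p42 with p30. Its coverage was 1710 (UT) and 1415 (LPS) reads with p30, and 7025 and 3343 with p42, which was 3.52-fold in UT and 2.71-fold in LPS after scaling. Its loop to Idh1, which encodes an isocitrate dehydrogenase, had 19, 10, 53 and 28 contacts, of which p42 held 73.6% in UT (62.4 to 82.4%) and 73.7% in LPS (58.0 to 85.0%). The bin was chosen for its coverage in these lists, and the shares are a description. The bin of Gm66289 and Gm66186 on chromosome 10, 38.2 kb from Mdm1, was the other, with 2031, 2382, 8273 and 5528 reads, or 3.49-fold and 2.66-fold.

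**Figure D4:**
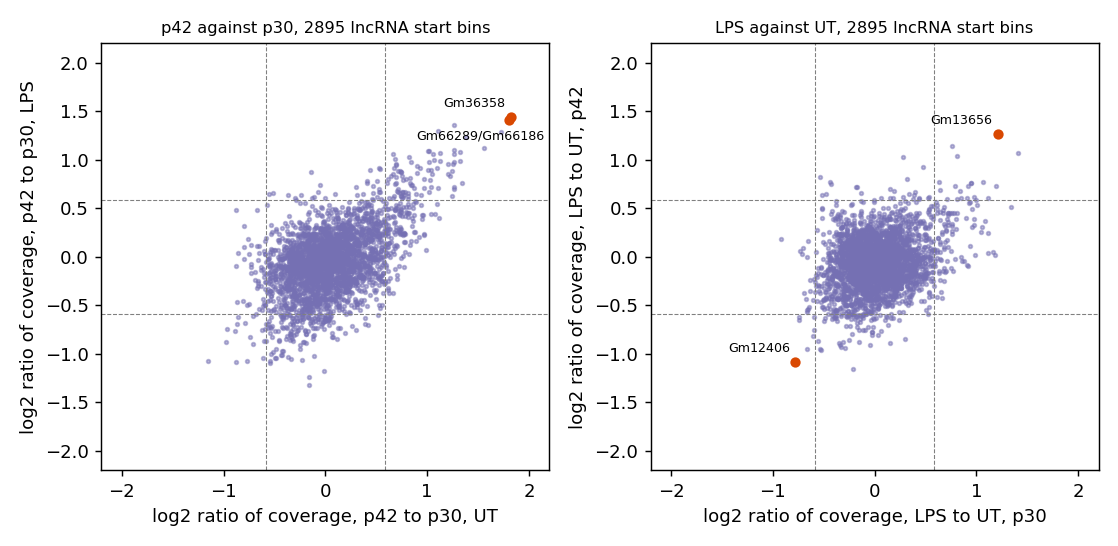
log2 ratios of scaled coverage at 2895 lncRNA start bins with a loop in all 4 lists, for p42 against p30 in UT (x axis) and LPS (y axis) on the left, and for LPS against UT with p30 (x axis) and p42 (y axis) on the right; dashed lines mark 1.5-fold. The named bins are among the 5 most extreme of both comparisons, and 87 bins lie past the fold at the upper right of the left panel and 20 of the right one.

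After LPS, Gm13656 on chromosome 2 was among the 5 highest in both isoforms, with 1961, 4136, 2703 and 4387 reads, or 2.32-fold with p30 and 2.41-fold with p42. It lies 25.6 kb from Nfe2l2, which encodes the oxidative stress factor NRF2, and held 2, 10, 8 and 9 loops. A loop to the Nfe2l2 start was in all lists other than p30 UT, with 32 contacts after p30 LPS and 29 (UT) and 32 (LPS) with p42. At the other end Gm12406, in an intron of Enho, had 7079, 3755, 6169 and 1975 reads, 1.71-fold lower with p30 and 2.11-fold lower with p42 after LPS, and held 1 or 2 loops.

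Well-known lncRNAs were taken from lists by their role. The lists are short, and their counts stand beside those of all 27299 lncRNA genes of these start bins, of which 6474 (23.7%) had a loop in at least 1 list and 3242 (11.9%) in all 4. Of 6 lncRNAs of the immune list whose start bins qualified, 5 had a loop. Ptgs2os2, also known as lincRNA-Cox2, is a lncRNA that macrophages induce upon toll-like receptor signals, and it lies 65.2 kb from Ptgs2, which encodes cyclooxygenase-2. Its bin (Ptgs2os2/Gm70780, chr1:150040001-150045000) had no loop with p30 UT, 6 with p30 LPS, and 16 (UT) and 14 (LPS) with p42. At equal size these were 0, 6, 8 and 14, so that p42 LPS and not p42 UT had the most. The loop to Ptgs2 had 11 contacts with p30 LPS and 20 (UT) and 17 (LPS) with p42. That to Pla2g4a, which encodes the phospholipase that frees arachidonic acid, had 12, 31 and 26 contacts in these lists. Contacts in p30 UT are not known, since pairs that miss the threshold are not listed. Coverage was 5317, 16577 and 9792 reads in the same lists, and p42 was higher by 1.08 on the log2 scale under LPS.

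**Figure D5:**
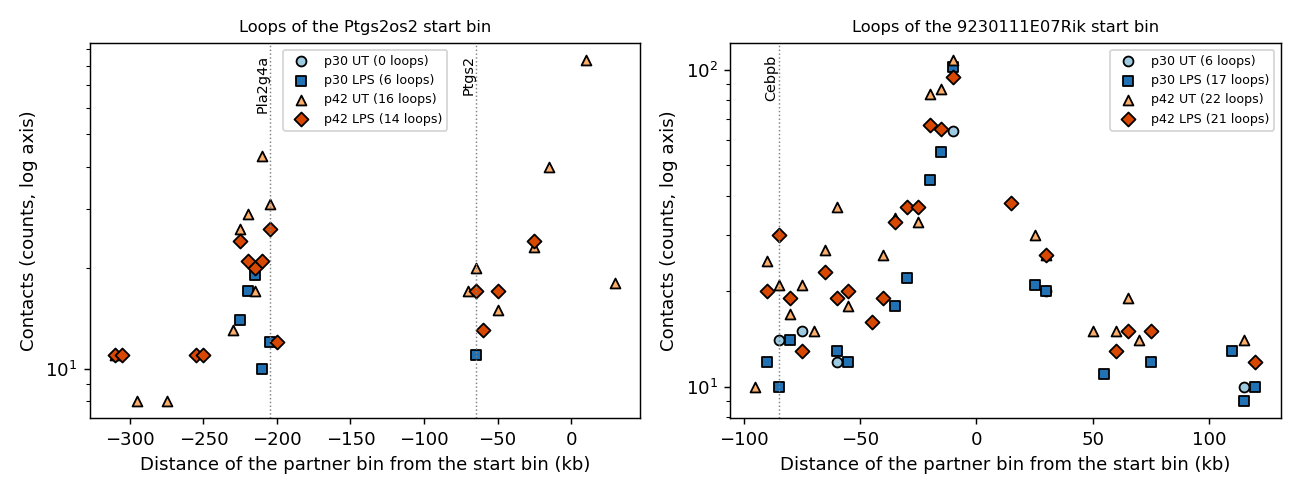
Contacts (counts, log axis) of each loop of the Ptgs2os2 start bin (left) and of the bin in which 9230111E07Rik starts (right) against the distance of the partner bin in kb, with negative values towards lower positions; 1 symbol per list, and dotted lines at bins with a protein-coding start. At left p30 UT has no loop, and at right it has 6 of the 29 distinct loops.

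Mirt1, first described in heart tissue, held 19 loops (UT) and 15 (LPS) with p30 and 32 and 20 with p42, and its loop to Dusp5 had 24, 12, 27 and 15 contacts. Trp53cor1, or lincRNA-p21, is a p53 target beside Cdkn1a. It held 13, 16, 16 and 13 loops, and its loop to Cdkn1a, over 15 kb, had 88, 77, 156 and 88 contacts. The number of loops at Trp53cor1 was therefore close to even while p42 UT had the most contacts. Nron and Lncpint had at most 1 loop per list.

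Host genes of microRNAs had loops in 5 of 12 cases, each in all 4 lists. Mir142hg, host of a microRNA that is specific to blood cells, held 8 and 18 loops with p30 (UT, LPS) and 16 and 13 with p42. Its bin was joined to Mpo, the gene of the neutrophil granule enzyme myeloperoxidase, with 20 contacts after p30 LPS and 61 (UT) and 39 (LPS) with p42, and no such loop was in p30 UT. The loop to Rnf43, a ubiquitin ligase gene, was in all lists with 14, 10, 43 and 24 contacts. The p42 share of these was 75.4% in UT (62.9 to 84.8%, against 51.4%) and 70.6% in LPS (53.8 to 83.2%, against 52.2%), clear of the modelled share in both. The loop of this bin to Supt4a was in all lists too, with 49, 60, 67 and 53 contacts. Its p42 share was 57.8% in UT (48.7 to 66.4%) and 46.9% in LPS (38.0 to 56.1%), and both intervals held the modelled share. Mir223hg, host of a myeloid microRNA, held 4, 3, 8 and 7 loops, all within the region before its start, and none led to a protein-coding start. Its closest loop, over 10 kb, had 52, 77, 145 and 89 contacts. Mir22hg held 8, 16, 23 and 8 loops, Mir181a-1hg 5, 10, 13 and 3, and Dleu2 5, 7, 10 and 6. In lists of equal size p42 UT held 10 loops at Mir142hg, 13 at Mir22hg, 8 at Mir181a-1hg and 4 at Dleu2, and the list with the most was p30 LPS at each (tied with p42 LPS at Dleu2). Mir155hg and Mir17hg were among the 7 without a loop.

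Malat1 and Neat1, nuclear lncRNAs that most cells express at high levels, start close to each other, and other lncRNA genes share their bins. Malat1 held 15 loops (UT) and 16 (LPS) with p30 and 18 and 18 with p42, of which 14 were in all lists, and Neat1 held 15, 19, 19 and 17, of which 13 were. At equal size p42 UT held 15 loops at Malat1 and 13 at Neat1, the fewest (at Malat1 tied with both p30 lists). Their loops to the common start bin of Frmd8 and Slc25a45 had 29, 31, 57 and 43 contacts from Malat1 and 75, 102, 121 and 95 from Neat1. Most of the distinct loops of both bins (14 of 20 and 13 of 23) were thus found in every list. Chaserr, a lncRNA upstream of the chromatin remodeller gene Chd2, was alike, with 13, 17, 20 and 15 loops, 12 of them in all lists, and 43, 70, 105 and 63 contacts with Chd2.

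Hosts of small nucleolar RNAs had loops in 12 of 14 cases, 8 of them in all 4 lists, with few loops each. Snhg1, the host of several such RNAs, held 2, 3, 10 and 2 loops, and Snhg20 5, 7, 10 and 9. At equal size these were 2, 3, 3 and 2 loops and 5, 6, 6 and 9, and p42 UT no longer stood out at either. Of the lncRNAs listed for X inactivation, Xist, Jpx and Ftx had loops in all lists. Tsix, which is antisense to Xist, had none, nor had Firre, which lies elsewhere on the X chromosome. The Xist start bin was marked as without an H3K27ac peak in every list and had a coverage of 838, 873, 1008 and 692 reads. Jpx held 4, 4, 5 and 6 loops and Ftx 4, 3, 5 and 2.

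Imprinted lncRNAs had a loop in 1 of 8 cases, Peg13, with 2 loops in p30 UT and 1 in p42 LPS. H19, Meg3, Airn and Kcnq1ot1 had none. Of 10 haematopoietic lncRNAs 3 had loops: Spehd in an exon of Gata2 with 2, 2, 4 and 1 (2 in p42 UT at equal size), Lockd beside the cell cycle inhibitor gene Cdkn1b with 1, 1, 3 and 1, and Bloodlinc with 1 loop in each p42 list (that of p42 UT was not in the list of equal size). Pvt1, Morrbid and Hotairm1 were not joined to any bin. A gene without a loop had no significant pair at its start bin, which does not show that its start is inactive. Of 9 other lncRNAs, listed from work in various tissues, Chaserr, Oip5os1 and Dnm3os had a loop.

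Sharing between lists was counted for single loops and for bins. Of the 38146 loops at lncRNA start bins, 6332 (16.6%, 95% Wilson interval 16.2 to 17%) were in all 4 lists and 18209 (47.7%) in a single one, of which 10382 were in p42 UT alone. Loops at protein-coding starts were in all lists in 17.7% and all loops in 14.5%. In a single list were 46.5% of loops at protein-coding starts and 50.5% of all 214313 loops, with 61574 of the latter in p42 UT alone. The share of lncRNA start loops in a single list was thus near that of all loops. Of the 5863 bins 2895 (49.4%) had a loop in all 4 lists and 1130 in a single list. In lists of equal size 19.3% of 28718 loops were in all lists. Of these, 4.23% were in both p42 lists alone, 3.65% in both p30 lists alone, 3.63% in both UT lists alone and 3.15% in both LPS lists alone. The pairs with nothing in common but list length, p30 LPS with p42 UT and p30 UT with p42 LPS, gave 3.29% and 2.44% at lncRNA starts. Over all loops they gave 3.42% and 2.60%.

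Contacts of the 6332 loops in all lists summed to 238595 and 236330 with p30 (UT, LPS) and 328361 and 220498 with p42. The p42 share was 57.9% in UT (57.8 to 58.0%), where modelled contacts gave 51.4% and the caller's expected contacts 53.1%. In LPS it was 48.3% (48.1 to 48.4%), beside 52.2% and 50.7%. The LPS share was 49.8% with p30 (49.6 to 49.9%), beside 44.7% and 46.3%, and 40.2% with p42 (40 to 40.3%), beside 45.5% and 43.9%. Per modelled contact, 490 of these loops had at least 2-fold more contacts in p42 UT than in p30 UT and 18 had 2-fold fewer, while between the LPS lists 45 had more and 226 fewer. These are 7.74% and 0.284% in UT and 0.711% and 3.57% in LPS, beside 6.62%, 0.319%, 0.557% and 2.76% of the 31032 loops of all kinds that were in all lists. The p42 share of contacts over those 31032 loops was 57.5% in UT and 48.6% in LPS, and the LPS share 49.7% with p30 and 40.8% with p42. The direction of the difference between p42 and p30 was thus opposite under UT and LPS in the loops at lncRNA start bins and in all loops alike, which was not tested. Of 47 loops in all lists between named bins and protein-coding starts, the interval of the p42 share in UT lay above the modelled share in 18 and below it in 0, and that in LPS above in 3 and below in 5. For the LPS share the numbers were 7 and 1 with p30, and 2 and 11 with p42. In each comparison the larger number was thus on the side of the difference common to all loops. Many of these bins were named for their loops or coverage in the same lists, so that the counts are a description. The same count over all 6332 loops was not made. The share at Ccr1 in UT (69.8 to 80.9%) lay above the common 57.9% too, while the interval at Irf2bp2 held it.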

How the data were processed

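Per the methods and the submitters' processing notes, HiChIP reads were aligned with BWA 0.7.17, pairs were handled with pairtools and loops were called with FitHiChIP in 5 kb bins of the mm39 genome (GRCm39) at a q-value of 0.01. Each deposited list gave, per loop, the contact count made by the authors, the read coverage of both bins, whether each bin held a peak, the expected contacts, and the contact probability as a fraction of all modelled contacts. The deposited lists have no header, and their columns were read in FitHiChIP's order. The deposited q-values come from FitHiChIP's model, and the largest was 0.01. The sources do not say how the 2 libraries of a group were combined, and pairs above the threshold are not listed. Modelled contacts, computed as the median of expected contacts over contact probability, served as depth.

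Start sites came from GENCODE mouse release M39 and promoters from the GRCm39 sequence, since the promoter table at hand was of an older build. Loops were assigned to bins in Python 3.11.15 (pandas 2.3.3, numpy 2.4.6, scipy 1.17.1, matplotlib 3.10.9), and the assignment was tested on simulated data. Classes of bins were compared over the 4 lists by an exact sign-flip permutation test. Shares were given 95% Wilson intervals for counting error. Coverage ratios were centred on the median over all bins.

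Named bins were the 10 with most loops, the 5 per direction with the largest difference of the same sign in both comparisons of a factor, members of fixed lists of known lncRNAs, and bins among the 5 largest coverage ratios of both comparisons. The members and lists were chosen with earlier results of these data known. Alternatives were merged neighbouring pairs, equal list size, a q-value under 0.001, a minimum distance of 20 kb, a stricter bin rule, all transcript starts, another scaling and a 2-fold difference.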

Additional observations from a re-analysis of the deposited data

Results flagged for a closer look

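LPS and UT lists differed in opposite directions with both isoforms. The log2 ratio of the number of loops at lncRNA start bins (LPS to UT) was 0.20 with p30 and -0.97 with p42, and that of the number of lncRNA genes with a loop was 0.02 with p30 and -0.40 with p42. The difference between the isoforms was not tested, since there was 1 list per group. In lists of equal size the ratios of loops were -0.0034 and -0.05, and the contrast in loops was no longer seen. Genes with a loop then numbered 4539 (UT) and 4234 (LPS) with p30 and 4093 and 4313 with p42, so that the direction of the gene contrast turned in both isoforms. Modelled contacts numbered 17976716 in the UT and 14503330 in the LPS list with p30, and 18999991 and 15831583 with p42, and the part of depth was not tested.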

How the results depend on the processing

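No paired analysis was possible because the 2 libraries of each group were deposited as 1 list, and for the same reason no replicate could be left out. Of the values recomputed, 89 kept their direction and stayed within their limits, 79 moved further and 1 changed sign. Values below are in list order (p30 before p42, UT before LPS), and ratios are log2 of p42 to p30 in UT and LPS, then of LPS to UT with p30 and p42.

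With neighbouring pairs merged, loops at lncRNA start bins numbered 7011, 7381, 10167 and 6503, the ratios were 0.54, -0.18, 0.07 and -0.64, and the shares of the list 24.5, 24.8, 25.5 and 24.3%. At equal size the p42 UT list held 15110, the ratios were 0.01, -0.03, -0.0034 (the change of sign) and -0.05, the p42 UT median distance was 45.0 kb, the shares were 19% (p30 LPS) and 19.2% (p42 UT), the p42 UT share of protein-coding partners was 19.8%, and 19.3% of loops were in all lists. At a q-value under 0.001 the p30 UT list held 10193, the ratios in UT and for LPS were 1.02, 0.24 and -1.07, the median distances 40 kb (p30 LPS) and 45.0 kb (p42 UT), the shares 19.9, 19.4, 18.6 and 19.4%, and those of protein-coding partners 20.6, 20.9, 19 and 19.3%. From 20 kb on, these ratios were 0.93, 0.17 and -1.01, the distances 65.0, 60.0, 60.0 and 60.0 kb, the shares 20.4, 20.3, 19.3 and 20.1%, those of partners 20, 21.2, 18.9 and 19.4%, and 15.2% of loops were in all lists. Without bins next to a protein-coding start bin the shares were 14.5, 14, 13.6 and 14.1%, those of partners 17.4, 18.4, 16.6 and 17.2%, and 16.1% of loops were in all lists. With the starts of all transcripts the shares were 20.2, 19.7, 19.4 and 19.8%, those of partners 30.8, 31.0, 29.3 and 30.3%, the p30 UT distance 55.0 kb, and 16.1% were in all lists. At 2-fold, 46, 24, 14 and 13 bins were higher and 2, 18, 1 and 3 lower in coverage. Scaled by the mean of peak bins, 181 bins were lower and 206 higher in p42 UT than in p30 UT. The shares of all bins were not computed for the counts at 2-fold and with this scaling. The cause of these shifts was not tested. Contacts of pairs that missed the threshold are not known.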
